A study of Mus musculus with 9 samples.

Results

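The subject is a set of 10 genes of the rod photoreceptor that encode the cyclic nucleotide-gated channel of the outer segment with its calcium exchanger (Cnga1, Cngb1, Slc24a1) and proteins that shape, stack or clear the outer segment discs (Prph2, Rom1, Abca4, Reep6, Rp1, Fscn2, Prom1). They were taken by symbol from the platform annotation by their role, but with earlier results of these data known. Counts of the set beside those of all genes are therefore a description. All 10 were among the 18193 genes that had a probe set with a single gene symbol. They had 11 such probe sets, 2 for Rp1 and 1 for each other gene, and for Rp1 the brighter one, by its mean over all arrays, stood for the gene. Retinal RNA was measured on Affymetrix mouse expression arrays in 3 groups of 10-week-old female Babl/c mice (written so in the labels, an albino strain): mice under white LED light of 7378K, mice under white LED light of 2954K, and control mice kept in a relatively dark environment, each for 14 days. The LED lamps gave 1000 lx. All 3 groups, the controls included, are labelled with a cycle of 12 hours on and 12 hours off, and no illuminance is stated for the controls. Each array held a pool of 3 right-eye retinas after separation from the pigment epithelium, n = 3 pools per group, so p-values measure the spread between pools. An array is called by its group and its number within that group, such as 7378K 1.

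A rod answers light by closing cyclic nucleotide-gated channels in the plasma membrane of its outer segment, through which sodium and calcium flow in darkness. The exchanger beside the channel removes the calcium. Inside the same membrane lies a stack of discs that carries the visual pigment, and tetraspanin proteins hold the sharply bent rims of these discs. The outer segment is rebuilt continually, with new discs formed at its base and old ones shed at its tip, so its genes are among the most active of the retina.

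The genes lie on 9 chromosomes of the mouse, with Cnga1 and Prom1 both on chromosome 5. Upstream windows in the RefSeq promoter table (build GRCm38.p6) were found for 8 of the 10 genes, with 2 windows for Prom1. None was found for Rp1 or for Reep6, which is among the genes that fell under 7378K light. Each window was searched over the 250 bases before the annotated start. Letters TAATCC (reverse complement GGATTA), a sequence bound by the photoreceptor homeodomain factor CRX, stood in the windows of 3 genes, Cnga1, Cngb1 and Abca4, against 6.25% of all 32851 windows. Letters TGCTGA (reverse complement TCAGCA), part of sites bound by the rod leucine zipper factor family, stood in 0 of the 9 windows of these genes, against 16.1% of all windows. These matches describe letters and no measured binding. The windows of 4 of the genes that fell under 7378K light are shown because they allow the channel pair and the disc rim pair to be compared. Capitals mark TAATCC, and each sequence runs 5′ to 3′ on the strand of the gene.

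Cngb1 (GRCm38.p6, chr8:95306586-95306835, - strand): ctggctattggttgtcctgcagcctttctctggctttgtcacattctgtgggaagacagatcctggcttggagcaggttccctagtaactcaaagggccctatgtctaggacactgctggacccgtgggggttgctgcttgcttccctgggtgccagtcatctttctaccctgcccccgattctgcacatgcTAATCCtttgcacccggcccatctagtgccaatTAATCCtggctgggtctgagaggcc

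Cnga1 (GRCm38.p6, chr5:72642753-72643002, - strand): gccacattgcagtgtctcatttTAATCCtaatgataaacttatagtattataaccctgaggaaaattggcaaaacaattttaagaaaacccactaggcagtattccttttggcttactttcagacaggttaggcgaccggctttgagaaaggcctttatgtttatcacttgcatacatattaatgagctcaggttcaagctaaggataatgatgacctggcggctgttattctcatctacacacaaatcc

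Prph2 (GRCm38.p6, chr17:46910228-46910477, + strand): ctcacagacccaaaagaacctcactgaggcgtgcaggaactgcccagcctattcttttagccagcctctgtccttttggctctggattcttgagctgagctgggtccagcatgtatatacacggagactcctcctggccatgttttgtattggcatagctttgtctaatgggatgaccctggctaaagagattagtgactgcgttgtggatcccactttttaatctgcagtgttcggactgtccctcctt

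Rom1 (GRCm38.p6, chr19:8929357-8929606, - strand): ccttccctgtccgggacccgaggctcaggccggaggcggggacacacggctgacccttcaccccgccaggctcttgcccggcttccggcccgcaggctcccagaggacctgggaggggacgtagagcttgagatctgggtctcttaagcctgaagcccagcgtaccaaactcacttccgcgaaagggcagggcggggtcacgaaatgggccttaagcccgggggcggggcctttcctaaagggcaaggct

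Cngb1 held the letters at 25 and 58 bases before the start and Cnga1 at 228 bases, counted from the first base of a match, whereas neither Prph2 nor Rom1 held them in this window.

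The tissue carried rod transcripts at the top of the array scale, and the technical measures were not even across groups. Signals are given on the log2 scale as deposited. The highest signal of each array was 14.96 to 15.42, Sag (rod arrestin) measured 14.59 to 15.09, and Gnat1 (rod transducin) 14.39 to 14.98. The summed signal of 5 rod markers, Cnga1 among them, was 16.53 to 16.77 under 7378K light, 16.43 to 16.86 under 2954K light and 16.58 to 16.85 in controls, so the groups overlapped. Pigment epithelium RNA was present on all 9 arrays in spite of the separation (Rpe65 9.73 to 11.83), while Best1, also of the pigment epithelium, stayed at 1.97 to 3.69. The summed signal of 8 pigment epithelium markers was 14.27 to 15.30 under 7378K light, 14.53 to 15.53 under 2954K light and 13.70 to 15.33 in controls. The third array of each group had lens signal, with Crybb2 at 9.99 in 7378K 3, 12.63 in 2954K 3 and 14.75 in control 3 against 3.08 to 7.69 elsewhere. Among the other cell type lists, 4 of 4 microglial markers rose in both LED groups (of all genes, 2.36% under 7378K and 1.03% under 2954K light). Their summed signal was 12.62 to 12.82 under 7378K light, 12.56 to 12.71 under 2954K light and 10.72 to 11.33 in controls. For 4 cone markers the sum was 14.31 to 14.37, 14.28 to 14.55 and 14.48 to 14.74. Of these, 0 were called in either LED group alone, and 1 fell with the LED groups averaged (1.05% of all genes). The 3′ minus 5′ signal of Gapdh and beta-actin, a measure of lost 5′ ends, was 1.80, 1.67 and 1.55 in 7378K arrays, 2.78, 0.21 and 1.05 in 2954K arrays and 0.33, 0.20 and 0.42 in controls. Its difference from control was 1.36 for 7378K, where no LED array overlapped the controls (exact two-sided permutation p = 0.1, the smallest that 3 against 3 arrays allow, adjusted p = 0.2 over 8 tests). It was 1.03 for 2954K, where 2954K 2 lay within the controls (exact permutation p = 0.3, adjusted p = 0.457). Measured on the dap spike-in, the 3′ minus 5′ signal was 2.72, 2.76 and 2.66 in 7378K arrays and 1.45, 1.08 and 1.72 in controls. In 2954K arrays the dap signal was 2.88, 1.12 and 2.05. For 7378K it differed from control by 1.30, again with no overlap (exact permutation p = 0.1, adjusted p = 0.2). For 2954K it differed by 0.60 (exact permutation p = 0.4, adjusted p = 0.457). The part of lens, microglial RNA and 5′ loss in the results on the 10 genes was not tested, beyond the fits with and without the arrays and covariates named. The covariate fits cannot separate 5′ loss from 7378K light, since the 7378K and control arrays do not overlap in it.

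The comparisons asked how the rod channel and disc genes differ between LED light and a dark environment, and between the 2 colour temperatures. Under 7378K light, 5 of the 10 genes fell, where 1.16% of all tested genes did: both channel subunits, Cnga1 and Cngb1, both tetraspanins of the disc rim, Prph2 and Rom1, and Reep6. The falls were 1.32-fold to 1.74-fold. Under 2954K light none passed the test, which 1.22% of all genes did, although 9 of 10 fitted differences were below 0 (48.2% of all genes), with Reep6 the lowest at -0.36 and Prom1 the highest at 0.09. Between 7378K and 2954K light none passed the test, as for 0% of all genes, with fitted differences of -0.52 for Prph2 to 0.02 for Prom1. These are pooled retinas, in which fewer rods and less of a transcript per rod cannot be told apart. Differences are on the log2 scale, from a limma fit to all 9 arrays, with their SE. Each adjusted p is a Benjamini-Hochberg value over the 12761 genes above an intensity filter, which all 10 genes passed.

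**Figure D1:**
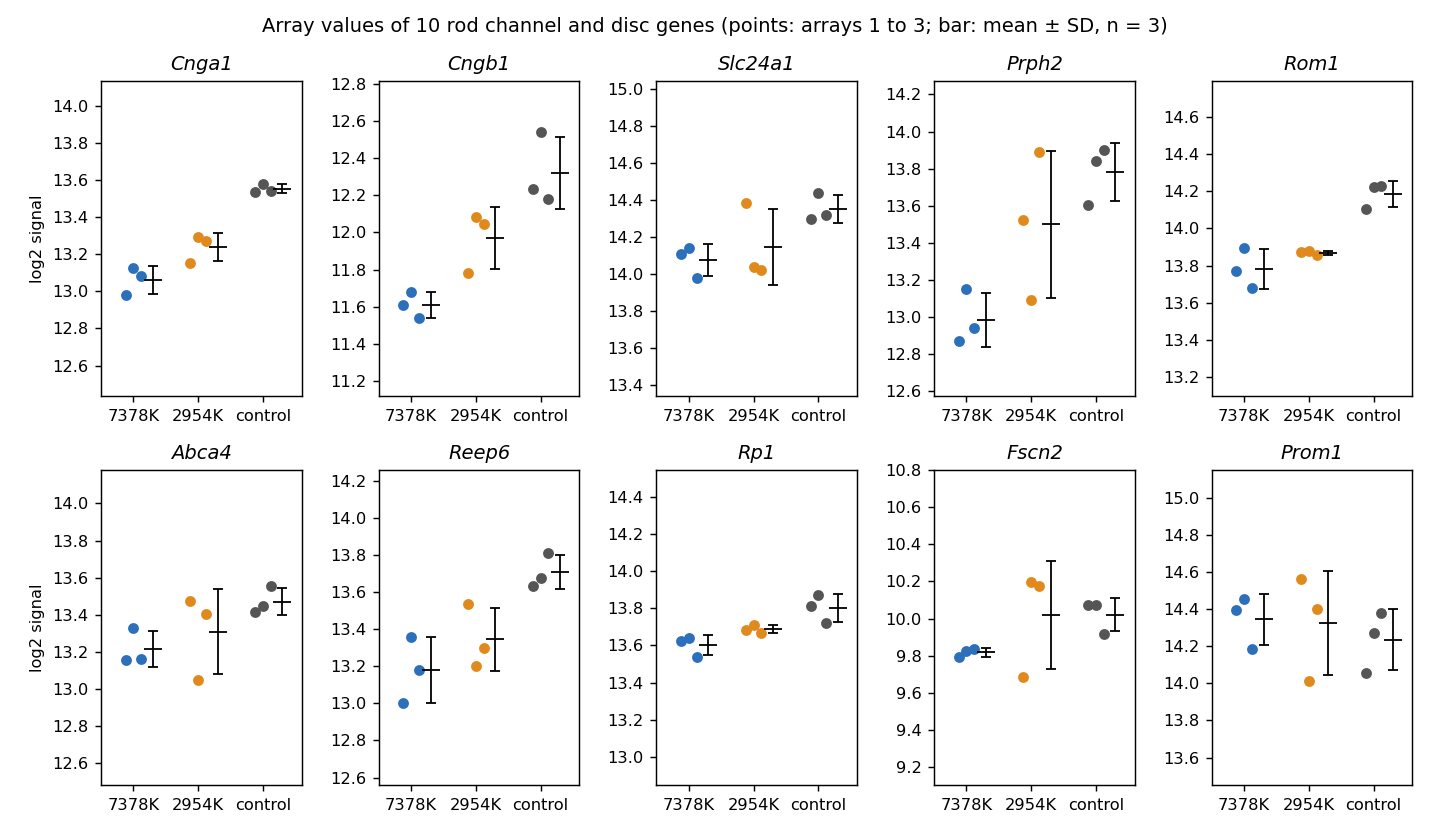
Log2 signal (vertical axes, each spanning the same number of log2 units) of the 10 genes on each array, by group. Points are the 3 arrays of a group and the bar beside them is the mean ± SD. For Cnga1, Cngb1, Rom1, Reep6 and Rp1 all 6 LED arrays lie below all 3 controls, as for 4.68% of all genes, and Prom1 shows overlapping groups.

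Cnga1 encodes the alpha subunit, which forms the pore of the rod channel and can open on its own. Its signal was 12.98, 13.13 and 13.08 on 7378K arrays, 13.15, 13.29 and 13.27 on 2954K arrays and 13.54, 13.58 and 13.54 on control arrays. The 3 groups did not overlap, and the SD of the controls was 0.02. Under 7378K light Cnga1 fell by 0.49 ± 0.09 (SE; 95% confidence interval -0.68 to -0.30; adjusted p = 0.00901), or 28.9%. Under 2954K light the difference was -0.32 ± 0.09 (adjusted p = 0.127), with all 3 arrays below control. Between 7378K and 2954K light it was -0.18 ± 0.09 (adjusted p = 0.978), again with no overlap of the arrays.

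Cngb1 encodes the beta subunit, which tunes the channel and, through its glutamic acid-rich part, reaches toward the disc rim. It measured 11.61, 11.68 and 11.54 on 7378K arrays, 11.78, 12.08 and 12.05 on 2954K arrays and 12.23, 12.54 and 12.18 on control arrays. Here too the 3 groups were apart on every array, with 7378K the lowest. Cngb1 fell by 0.71 ± 0.12 under 7378K light (95% confidence interval -0.97 to -0.45; adjusted p = 0.00682), or 38.8%, and it had the smallest p of the 10 genes in this comparison. The difference was -0.35 ± 0.12 under 2954K light (adjusted p = 0.234) and -0.36 ± 0.12 between 7378K and 2954K light (unadjusted p = 0.0103, adjusted p = 0.978). Its call under 7378K light was kept in each of the 9 fits that left out 1 array, whereas that of Cnga1 ended without control 2 (adjusted p = 0.0654) and without 7378K 1 (adjusted p = 0.0758). Both calls ended with a 3′ minus 5′ covariate: with that of the dap spike-in, Cngb1 was -0.43 (adjusted p = 0.287) and Cnga1 -0.39 (adjusted p = 0.167).

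Slc24a1 encodes the sodium, calcium and potassium exchanger that sits beside the channel. Its signal was 14.11, 14.14 and 13.98 on 7378K arrays, 14.38, 14.04 and 14.02 on 2954K arrays and 14.30, 14.44 and 14.32 on control arrays. The 7378K arrays all lay below the controls, and 2954K 1 lay among them. The difference was -0.27 ± 0.11 under 7378K light (95% confidence interval -0.52 to -0.03; adjusted p = 0.175) and -0.20 ± 0.11 under 2954K light (adjusted p = 0.462), so neither passed. With the 3′ minus 5′ signal of Gapdh and beta-actin as a covariate the 7378K difference was -0.47 (adjusted p = 0.0589).

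Prph2 encodes peripherin 2, the tetraspanin that bends the disc rim. It measured 12.87, 13.15 and 12.94 on 7378K arrays, 13.52, 13.09 and 13.89 on 2954K arrays and 13.60, 13.84 and 13.90 on control arrays. The 7378K arrays were all below the controls, while the 2954K arrays ran from the 7378K level in 2954K 2 to the control level in 2954K 3. Prph2 fell by 0.80 ± 0.17 under 7378K light (95% confidence interval -1.17 to -0.43; adjusted p = 0.0271), a 1.74-fold fall and the largest of the 10. Under 2954K light the difference was -0.28 ± 0.17 (95% confidence interval -0.65 to 0.09; adjusted p = 0.502), and between 7378K and 2954K light -0.52 ± 0.17 (unadjusted p = 0.0106, adjusted p = 0.978). The spread within 2954K, an SD of 0.40, was wider than the 0.15 of 7378K and the 0.16 of controls.

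Rom1 encodes the second tetraspanin of the rim, which joins peripherin 2 in mixed oligomers. It measured 13.77, 13.89 and 13.68 on 7378K arrays, 13.87, 13.88 and 13.86 on 2954K arrays and 14.11, 14.22 and 14.23 on control arrays. All 6 LED arrays were below all controls, and the LED groups overlapped each other. Rom1 fell by 0.41 ± 0.09 under 7378K light (95% confidence interval -0.60 to -0.21; adjusted p = 0.0317) and differed by -0.32 ± 0.09 under 2954K light (adjusted p = 0.143). The calls of Prph2 and Rom1 under 7378K light were both lost when any 1 of the 3 controls or any 1 of the 3 7378K arrays was omitted, with adjusted p from 0.0516 (Prph2 without control 1) to 0.160 (Rom1 without control 2).

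Reep6 encodes a protein of the endoplasmic reticulum that shapes membranes and is needed by rods to keep their outer segments. It measured 13.00, 13.36 and 13.18 on 7378K arrays, 13.53, 13.20 and 13.30 on 2954K arrays and 13.63, 13.68 and 13.81 on control arrays. Every LED array was below every control. Reep6 fell by 0.53 ± 0.12 under 7378K light (95% confidence interval -0.79 to -0.27; adjusted p = 0.0317), or 30.7%, and the difference under 2954K light was -0.36 ± 0.12 (adjusted p = 0.21). When 1 of the 3 controls or 3 7378K arrays was omitted, the 7378K call was lost in 5 of 6 cases and kept in that of 7378K 2 (adjusted p = 0.0444), with the highest adjusted p, 0.166, without 7378K 1. Abca4, the disc rim transporter that clears retinal adducts, measured 13.16, 13.33 and 13.16 on 7378K arrays, 13.47, 13.05 and 13.40 on 2954K arrays and 13.41, 13.45 and 13.55 on control arrays. Its 7378K arrays lay below the controls, with a difference of -0.25 ± 0.12 that did not pass (adjusted p = 0.222), and under 2954K light the difference was -0.16 ± 0.12 (adjusted p = 0.574). With the Gapdh and beta-actin covariate the Abca4 difference under 7378K light was -0.46 (adjusted p = 0.113) and with dap -0.56 (adjusted p = 0.0703).

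Rp1, Fscn2 and Prom1 belong to the axoneme, the actin cytoskeleton and the site of disc formation, and none of them passed the test. Rp1, a microtubule-binding protein of the outer segment axoneme, measured 13.62, 13.64 and 13.54 on 7378K arrays, 13.69, 13.71 and 13.67 on 2954K arrays and 13.82, 13.87 and 13.72 on control arrays. The 3 groups did not overlap, and the differences were -0.20 ± 0.09 under 7378K light (adjusted p = 0.187) and -0.12 ± 0.09 under 2954K light (adjusted p = 0.586). The other Rp1 probe set had a mean of 5.61, below the filter value of 5.91, and was not tested; it read 6.10, 3.52 and 2.70 on 7378K arrays, 5.10, 6.82 and 4.88 on 2954K arrays and 6.78, 7.71 and 6.87 on control arrays. Averaged over both probe sets, Rp1 differed by -1.61 under 7378K light (adjusted p = 0.0649) and by -0.82 under 2954K light (adjusted p = 0.48), larger values that did not pass either. Fscn2, a retinal actin-bundling fascin, measured 9.79, 9.83 and 9.84 on 7378K arrays, 9.68, 10.20 and 10.18 on 2954K arrays and 10.07, 10.07 and 9.92 on control arrays. The 7378K arrays were below the controls by a small margin, with a difference of -0.20 ± 0.14 (adjusted p = 0.412) that was 0.087 with the 3′ minus 5′ signal as a covariate, and 2954K 1 stood apart from the other 2 arrays of its group.

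Prom1, a membrane protein of the outer segment base where discs evaginate, had no fitted fall in either LED group. It measured 14.39, 14.45 and 14.19 on 7378K arrays, 14.56, 14.01 and 14.40 on 2954K arrays and 14.06, 14.27 and 14.38 on control arrays, so all groups overlapped. The difference was 0.11 ± 0.14 under 7378K light (95% confidence interval -0.20 to 0.42; adjusted p = 0.698) and 0.09 ± 0.14 under 2954K light (95% confidence interval -0.22 to 0.40; adjusted p = 0.83). These intervals leave room for a rise or a small fall, and with either covariate the fitted difference under 7378K light was below 0 (-0.16 with the 3′ minus 5′ signal). It was the only member whose fitted difference from control was above 0 in both LED groups.

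**Figure D2:**
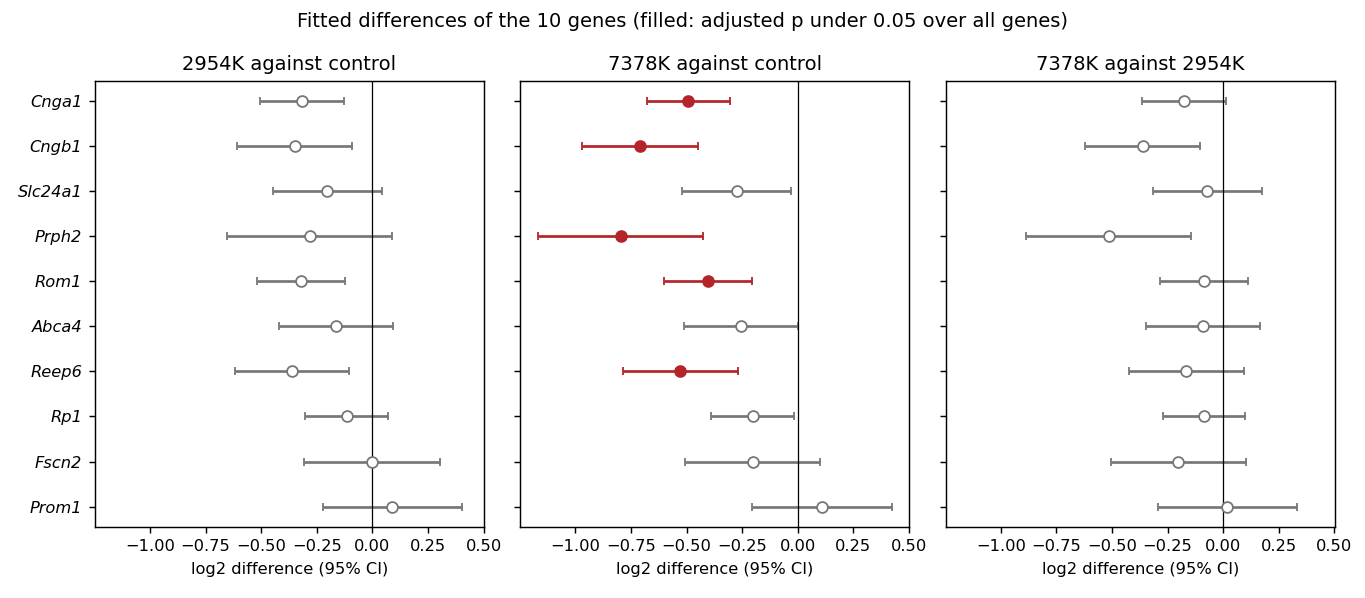
Fitted log2 differences (horizontal axes) of the 10 genes (rows) in 3 comparisons, with 95% confidence intervals. Filled red points have an adjusted p under 0.05 over all 12761 genes: 5 genes in 7378K against control, and none in the other comparisons.

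Counted over the set, 5 of 10 genes fell and 0 rose under 7378K light, where 1.16% of all tested genes fell, 2.36% rose and 3.52% changed in either direction. The arrays of 9 of the 10 genes lay wholly below the controls, where this held for 14.8% of all genes, and Prom1 was the exception. Fitted differences were below 0 for 9 of 10 (44% of all genes), and 7 of 10 had an unadjusted p under 0.05 (22.6% of all genes). The median difference was -0.34, against 0.04 over all genes. Under 2954K light 0 of 10 genes were called by limma (0.188% of all genes fell, 1.03% rose, 1.22% changed), 9 of 10 were below 0 (48.2% of all genes), and 1 was called with quantile normalisation (Reep6) and 1 when 2954K 2 was omitted (Cnga1). Of the 10, 4 had an unadjusted p under 0.05 (13.1% of all genes), and 5 lay wholly below the controls (7.53% of all genes), with a median of -0.24 against 0.01 over all genes. In 7378K against 2954K, limma called 0% of all genes and 0 of the 10, which were also not called in any of the 23 alternatives, while 9 of 10 were below 0 (43.6% of all genes). Here 2 of the 10, Cngb1 and Prph2, had an unadjusted p under 0.05 (4.07% of all genes), and 3 lay wholly below the 2954K arrays, Cnga1, Cngb1 and Rp1 (3.28% of all genes). The median was -0.13, against 0.03 over all genes. A p that misses the threshold here does not show that the colour temperatures acted alike, and these values do not show that they differed. The interval for Prph2, the largest fitted difference of the 10, ran from -0.89 to -0.14. That interval is not adjusted for the number of genes, and the Prph2 arrays of the 2 LED groups overlapped.

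With the 2 LED groups averaged and set against control, 4 of 10 genes fell, Cnga1 by 0.40 ± 0.07 (adjusted p = 0.0113), Cngb1 by 0.53 ± 0.10 (adjusted p = 0.0145), Rom1 by 0.36 ± 0.08 (adjusted p = 0.0253) and Reep6 by 0.45 ± 0.10 (adjusted p = 0.0342). Of all genes, 1.05% fell, 2.41% rose and 3.46% changed in this comparison. Differences were below 0 for 9 of 10 (46% of all genes), 6 of 10 had an unadjusted p under 0.05 (21.6% of all genes), and in 5 of 10 all 6 LED arrays lay below the controls (4.68% of all genes). Prph2, with its wide 2954K spread, had a larger difference of -0.54 ± 0.15 and did not pass (adjusted p = 0.0671). The count of 4 was 0 when control 1 or control 2 was omitted and 2 when control 3, 7378K 1 or 7378K 3 was. For these fits no share of all genes is given. All of these comparisons share the same 3 control arrays.

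The count of 5 under 7378K light was lower when any array of either group was omitted. It was 2, 1 and 2 when control 1, 2 or 3 was omitted and 1, 3 and 2 when 7378K 1, 2 or 3 was. It was 0 when the third array of each group, those with lens signal, was left out, which left 2 arrays a group. The share of all genes called was not set beside these counts. All 5 fitted falls stayed below 0 in each of the 23 alternatives. With the 3′ minus 5′ signal as a covariate 1 gene was called, Reep6 (adjusted p = 0.0231), and the differences were -0.53 for Cngb1, -0.41 for Cnga1, -0.41 for Rom1, -0.70 for Reep6 and -0.94 for Prph2. The median of the 10 was then -0.43. The covariate also lowered the share of all genes changed to 1.07%. In this signal the 7378K and control arrays did not overlap. Light and 5′ loss therefore cannot be told apart in this comparison, with or without the covariate.

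**Figure D3:**
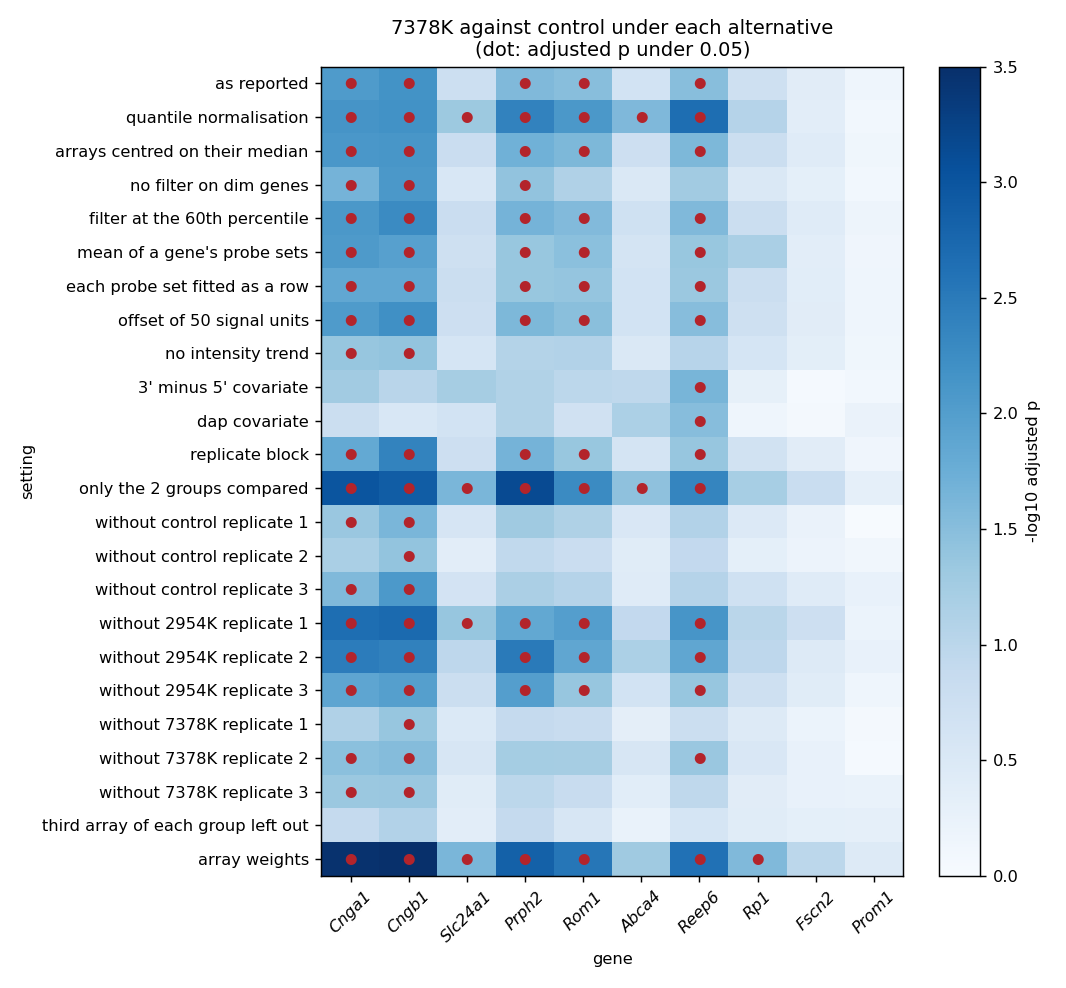
Adjusted p in 7378K against control for the 10 genes (columns) as reported and under each of 23 alternatives (rows), as -log10 of the adjusted p in shades of blue; dots mark an adjusted p under 0.05. Cngb1 is marked in 20 of the 23 alternatives, Cnga1 in 18, Reep6 in 15, Prph2 in 13 and Rom1 in 12.

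Taken array by array, 9 of 10 genes were below all 3 controls in each of 7378K 1, 7378K 2 and 7378K 3, where 28.3%, 26.9% and 27.7% of all genes were. In 2954K 1 and 2954K 3, 7 of 10 were, against 30.8% and 30.7% of all genes. In 2954K 2, 9 of 10 were below all controls, all but Fscn2, against 29.2% of all genes, and the median of the 10 lay 0.29 below the control means (deviation -0.29). The 3′ minus 5′ signal of this array, 0.21, lay within the controls' range of 0.20 to 0.42. Its summed signal of 5 rod markers, Cnga1 among them, was 16.43, the lowest of the 9 arrays, against 16.58 to 16.85 in controls. Sag (14.59) and Gnat1 (14.39) were also at their lowest on 2954K 2. The 10 genes were not lowered evenly there: the deviation was -0.69 for Prph2, -0.50 for Reep6 and -0.43 for Abca4, but -0.26 for Cnga1 and -0.23 for Cngb1. In 2954K 1, which had the highest 3′ minus 5′ signal, the order was the other way, with -0.54 for Cngb1, -0.40 for Cnga1 and -0.26 for Prph2 and with Abca4 at 0.0031. Each of these is a single array, and the part of 5′ loss was not tested.

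**Figure D4:**
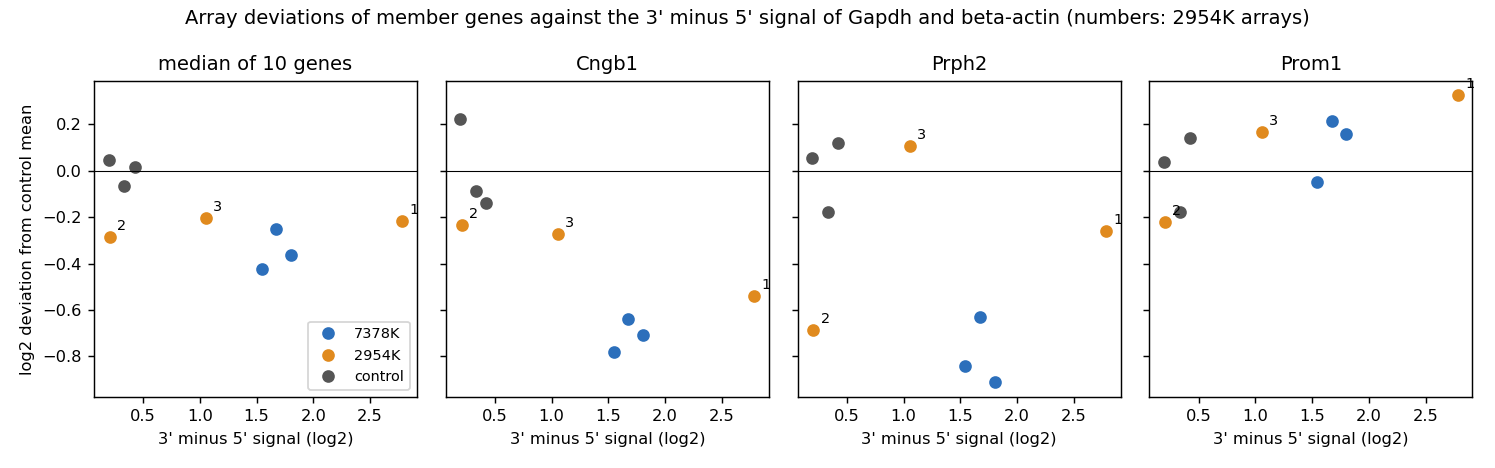
Deviation of each array from the control mean (vertical axis, log2) against its 3′ minus 5′ signal (horizontal axis, log2), for the median of the 10 genes, Cngb1, Prph2 and Prom1. Points are arrays, coloured by group, with the 2954K arrays numbered. The single array 2954K 2 lies at the controls' 3′ minus 5′ signal with a median deviation of -0.29. The part of 5′ loss was not tested.

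Partners in one complex were compared within each array, since a ratio within an array shows unequal change in signal, whatever its source. Prph2 minus Rom1 was -0.90, -0.74 and -0.74 on 7378K arrays, -0.35, -0.78 and 0.03 on 2954K arrays and -0.50, -0.38 and -0.33 on control arrays. The 7378K arrays lay below the controls, a difference of -0.39 (exact two-sided permutation p = 0.1, Benjamini-Hochberg adjusted p = 0.4 over 12 tests), which 3 against 3 arrays cannot take below 0.1. Cngb1 minus Cnga1 was -1.37, -1.44 and -1.54 on 7378K arrays, -1.37, -1.21 and -1.22 on 2954K arrays and -1.30, -1.04 and -1.36 on control arrays. The difference was -0.22 for 7378K against control, with 7378K 1 close to control 3 (exact permutation p = 0.1, adjusted p = 0.4). Cngb1 minus Slc24a1 averaged -2.47 ± 0.03 on 7378K arrays, -2.18 ± 0.37 on 2954K arrays and -2.03 ± 0.13 on control arrays (SD, n = 3 each). It differed by -0.44 for 7378K against control (exact permutation p = 0.1, adjusted p = 0.4) and by -0.15 for 2954K against control (exact permutation p = 0.8, adjusted p = 0.873). This ratio was -2.60, -1.95 and -1.97 on 2954K arrays and -2.06, -1.89 and -2.14 on control arrays. The lowest of these, 2954K 1, also had the highest 3′ minus 5′ signal of all arrays. The part of 5′ loss in the ratios was not tested.

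Across the 9 arrays most of the genes moved together, as a description in which group, array scaling and RNA quality are shared. Against the mean standardised profile of the other 9 genes, Pearson's r was 0.92 for Rom1, 0.89 for Reep6, 0.89 for Prph2, 0.88 for Cnga1, 0.85 for Cngb1, 0.84 for Rp1, 0.76 for Abca4 and 0.74 for Slc24a1. It was 0.22 for Fscn2 and -0.09 for Prom1. The closest pair was Cnga1 and Cngb1, with r = 0.94 over the 9 arrays. Outside the set, the 8 genes most like the mean profile of the 10 were Rab5if (r = 0.98), Top1mt (0.96), Ybx1 (0.96), Rgmb (0.94), Ptges2 (0.94), Commd3 (0.94), Ppa1 (0.93) and Vtn (0.93), each over 9 arrays.

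Other genes of the outer segment were counted as lists. Of 18 listed genes of the rod phototransduction cascade, 15 were tested. Under 7378K light 1 of them fell and 0 rose, where 1.16% of all genes fell and 2.36% rose, with a median of -0.21. Under 2954K light 0 were called (1.22% of all genes), with a median of -0.12. The one that fell was Gnb5, the G protein beta subunit of the complex that shuts off transducin, by 0.55 ± 0.10 (adjusted p = 0.0128). Rgs9bp, the anchor of that complex, fell when both LED groups were set against control, by 0.42 ± 0.10 (adjusted p = 0.041), and under 7378K light alone it differed by -0.46 ± 0.12 (adjusted p = 0.0505). The Gnb5 call under 7378K light was lost when control 2, 7378K 1 or 7378K 3 was omitted, and when its probe sets were averaged its difference was 0.0425. It was also lost with a covariate, at -0.39 (adjusted p = 0.118) with Gapdh and beta-actin and -0.34 (adjusted p = 0.334) with dap. The Rgs9bp call was kept in 8 of 22 alternatives. It was lost when any control, 2954K 3, 7378K 2 or 7378K 3 was omitted, and when the third array of each group was. It was also lost with the replicate number as a block (adjusted p = 0.0531) and with either covariate (-0.32, adjusted p = 0.319, and -0.34, adjusted p = 0.352). The remaining losses came with no filter on dim genes, probe sets averaged or each fitted as a row, and no intensity trend.

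Of 32 listed genes of outer segment structure and the connecting cilium, 27 were tested. Under 7378K light 1 rose and 0 fell, where 2.36% of all genes rose and 1.16% fell, with a median of -0.04. As 3.52% of all genes changed, 1 call among 27 is near that share. Bbs4, a subunit of the ciliary trafficking complex BBSome, was the one that rose, by 0.37 ± 0.09 (adjusted p = 0.0399). It was also called with the LED groups averaged, at 0.31 ± 0.08 (adjusted p = 0.0453). The 7378K call was lost when any control or any 7378K array was omitted, and when its probe sets were averaged the difference was -0.00997. With the replicate number as a block neither Bbs4 call held (adjusted p = 0.0517 for 7378K and 0.0572 for the LED groups averaged), and with the covariates the 7378K call was lost too (adjusted p = 0.238 and 0.428). Under 2954K light 0 of the 27 were called (1.22% of all genes). Of 7 tested genes of outer segment lipids, 1 fell under 7378K light (1.16% of all genes) and 0 rose (2.36% of all genes). The gene that fell was Agpat3, an acyltransferase of membrane phospholipids, by 0.72 ± 0.16 (adjusted p = 0.0288). This call was lost when control 1, control 2 or any 7378K array was omitted. Agpat3 was -0.36 (adjusted p = 0.324) with the Gapdh and beta-actin covariate and -0.19 (adjusted p = 0.695) with dap. Of the cone counterparts, Cngb3, the cone channel beta subunit, differed by -0.09 ± 0.16 (95% confidence interval -0.44 to 0.27) and Slc24a2, the cone exchanger, by 0.01 ± 0.18 (95% confidence interval -0.38 to 0.40) under 7378K light, and neither passed.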

How the data were processed

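The table deposited by the authors held log2 signals of 45101 probe sets on 9 arrays, with no missing value. MAS5 and affy are named, without version, role or order, per the submitters' processing notes; the log2 scale was checked on the values, whose linear form had a 2% trimmed mean of 500 on each array. They were used without further scaling, and 3 arrays a group limit the precision.

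Of the probe sets, 34945 had 1 gene symbol, 932 several and 9160 none, and 64 were controls; 34741 of the 34945 matched the GRCm38.p6 RefSeq table by gene identifier. A gene was tested if its mean reached 5.91, the 40th percentile over probe sets, which left 12761 of 18193 genes. One mean per group was fitted with limma 3.58.1 in R 4.3.3 (eBayes with an intensity trend, 6 residual degrees of freedom), with adjusted p under 0.05 as the threshold, and the fit was tested on simulated data. Tables were read with data.table (version 1.17.8), and figures were drawn with matplotlib 3.10.9.

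The 10 genes and the lists were chosen with earlier results of these data known. Named genes were the 10, at most 4 called genes of each companion list (with none called, the 2 with the smallest p), and the 8 most similar profiles. The tests of pairs within an array were added after the values were seen. Of the companion lists, genes without a single-symbol probe set were not analysed here. Alternatives changed the scaling, filter, probe set rule, offset, moderation, covariates, block, array weights and arrays.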

Additional observations from a re-analysis of the deposited data

How the results depend on the processing

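Over 23 alternatives (22 for the LED groups averaged), the 10 genes gave 910 single-gene results. Most were not called as reported and could not lose a call. The 68 lost calls were 37 among the 5 genes called under 7378K light and 31 among the 4 called with the LED groups averaged. Under 7378K light calls were kept in 12 (Rom1) to 20 (Cngb1) of 23 alternatives. With the LED groups averaged they were kept in 12 (Rom1, Reep6) to 17 (Cnga1) of 22. In addition, 17 results gained a call and 0 called values changed sign. The median difference kept its sign in all alternatives. The count of genes called under 7378K light (5) was 7 with quantile normalisation, 7 with only those 2 groups in the fit and 7 with array weights, but 3 with no filter on dim genes, 2 with no intensity trend, 1 with the 3′ minus 5′ covariate, 1 with that of the dap spike-in and 0 without the third array of each group. Its median (-0.34) was -0.43 with quantile normalisation, -0.45 with probe sets averaged per gene, -0.43 with the 3′ minus 5′ covariate and -0.42 with dap. For both LED groups the count (4) was 7 with quantile normalisation, 6 with array weights, 2 with no filter, 1 with no intensity trend, 1 with each covariate and 0 without the third arrays, and the median (-0.30) was -0.38 with quantile normalisation and -0.38 with probe sets averaged. Under 2954K light (0) it was 1 with quantile normalisation (Reep6). The share of all genes called can also change with the setting and is not set beside these counts or those with 1 array left out. They therefore describe the 10 genes alone. The cause was not tested, and leaving out the third arrays also leaves fewer arrays. Leaving out 1 array gave counts of 0 to 1 for 2954K (1 without 2954K 2, Cnga1), 1 to 6 for 7378K, 0 for 7378K against 2954K, and 0 to 5 for both LED groups. The medians were then -0.28 to -0.14, -0.39 to -0.29, -0.18 to -0.09 and -0.33 to -0.28. Prom1 was below 0 in 2 of 23 alternatives under 7378K light, both with a covariate. With probe sets averaged, Gnb5 was 0.0425 and Bbs4 -0.00997 under 7378K light. With the replicate number as a block the counts were 5 under 7378K light, 4 for both LED groups and 0 in the others, while Bbs4 under 7378K light (adjusted p = 0.0517) and, with the LED groups averaged, Bbs4 (0.0572) and Rgs9bp (0.0531) lost their calls. Deviations of same-numbered arrays correlated at 0.06 to 0.33, not above 0.1 in every pair, so the arrays were taken to share only a number; 8 of 9 arrays correlated best with an array of their own number, a hint from the data and not from the design. The fit of 2 groups alone was not run for the mean of both LED groups.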
